A study of Homo sapiens with 6 samples.

Results

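Aldo-keto reductases are cytosolic enzymes that use NADPH to reduce aldehydes and ketones on sugars, steroids, prostaglandins, lipid breakdown products and drugs. They are described here in MCF-10A cells, a human mammary epithelial cell line that is immortalized but not transformed, with and without ectopic CRB3. The family was set as 9 genes, AKR1A1, AKR1B1, AKR1B10, AKR1C1, AKR1C2, AKR1C3, AKR1C4, AKR7A2 and AKR7A3, and every probe set whose annotated symbol field names one of them was taken. That gave 7 of the 9 genes and 16 of the 54613 probe sets tested. AKR1A1 and AKR1B1 have no probe set under this rule and were not analysed here. The family was chosen by a result on these same arrays, the low AKR1C values in the CRB3-expressing cells. Its values for that contrast, and the calls made on them, are therefore given as a description, and the family was not tested as a set.

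CRB3 is a small transmembrane protein of the Crumbs polarity complex, and the study asked what its ectopic expression does to mammary epithelial cells. The CRB3-expressing cells carry a retrovirus labelled Crb3, the vector control cells carry the retrovirus labelled pNG, and both were infected, selected with puromycin, grown in normal MCF-10 growth medium and harvested as proliferating monolayers at 70% confluence. RNA of 3 samples per group was hybridized to 6 Affymetrix U133 Plus 2.0 arrays. The arrays thus compare a viral overexpression with a vector control in 1 immortalized line, and nothing in the sources used here says that the samples of a group came from separate infections, so a p-value covers no more than the spread of these samples, which may be technical.

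All values are log2 values made with the Robust Multichip Average method (RMA), which corrects background, normalizes the arrays together and gives 1 number per probe set and array. Differences are CRB3-expressing minus vector control, and a probe set is called where limma's adjusted p is under 0.05 and the fold change is above 1.5. The array medians lay between 5.84 and 5.88, and arrays of a group correlated at 0.997 or above across probe sets. The CRB3 probe set averaged 12.11 ± 0.10 on the CRB3-expressing arrays and 7.78 ± 0.17 on the vector control arrays (SD, n = 3 each), a difference of 4.33 (SE 0.095, limma adjusted p = 1.83e-07). Of 11 mammary epithelial markers measured, 3 were called higher (KRT14, CDH1 and KRT8) and 0 lower, beside 1.43% of all genes higher and 0.465% lower. At an unadjusted p under 0.05, limma gave 7 of the 11 higher and 1 lower, beside 10.4% and 8.39% of all genes. Their median log2 fold change was 0.36, beside 0.0066 over all genes. Their mean level was 11.60 to 11.69 on the CRB3-expressing arrays and 11.19 to 11.21 on the vector control arrays. Of 15 markers of other cell types, 0 were called higher and 1 lower (DCN, by 0.76), with a mean level of 5.44 to 5.52 on the CRB3-expressing arrays and 5.51 to 5.55 on the vector control arrays. The basal keratin KRT5 was at 13.58 in the CRB3-expressing group and 13.62 in the vector control group, while 10 of the 15 other markers had a mean under 6, among them the leukocyte gene PTPRC. The part of these markers in the values below was not tested. In bulk RNA such as this, fewer cells of a type and less RNA per cell cannot be told apart.

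The AKR1C genes are the steroid-handling branch of the family. AKR1C1 reduces progesterone to a less active product, AKR1C2 inactivates dihydrotestosterone, AKR1C3 makes testosterone and F-series prostaglandins, and AKR1C4 is a liver enzyme of bile acid synthesis. In other human cells AKR1C1, AKR1C2, AKR1C3 and AKR1B10 are known targets of NRF2, the transcription factor of the antioxidant response, which KEAP1 holds back and BACH1 opposes at the same DNA elements. The AKR1C genes lie together on chromosome 10 and arose by duplication, and their sequences are so alike that a probe meant for one can bind the transcript of another. For this reason probe sets with the suffixes _x_at and _s_at, which mark probes shared between transcripts, are given with their suffix. Levels of different probe sets are not ranked, and of a difference between them only its change from group to group is read.

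The promoters of the AKR1C genes are shown because the bright probe sets of 3 of these genes moved together and the 4 genes are close relatives. The 250 bases before the annotated start are shown for AKR1C1 at chr10:4963165-4963414 (plus strand), AKR1C2 at chr10:5003858-5004107 (minus strand), AKR1C3 at its annotated starts, chr10:5048531-5048780 (window 1) and chr10:5094164-5094413 (window 2, both on the plus strand), and AKR1C4 at chr10:5196587-5196836 (plus strand), from RefSeq on GRCh38.p14. In AKR1C1, capitals mark the bases inside its alignment with AKR1C2 that have no partner there. In the others, capitals mark bases inside the alignment with AKR1C1 that differ from it or have no partner in it. Bases beyond the end of an alignment, the first 4 of AKR1C1 and the first 8 of AKR1C3 window 1, were not compared and are in lower case.
AKR1C1: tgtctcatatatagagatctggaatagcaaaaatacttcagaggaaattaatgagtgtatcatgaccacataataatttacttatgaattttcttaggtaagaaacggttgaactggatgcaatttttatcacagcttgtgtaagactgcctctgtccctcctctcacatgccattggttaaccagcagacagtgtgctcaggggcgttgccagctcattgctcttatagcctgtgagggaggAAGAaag
AKR1C2: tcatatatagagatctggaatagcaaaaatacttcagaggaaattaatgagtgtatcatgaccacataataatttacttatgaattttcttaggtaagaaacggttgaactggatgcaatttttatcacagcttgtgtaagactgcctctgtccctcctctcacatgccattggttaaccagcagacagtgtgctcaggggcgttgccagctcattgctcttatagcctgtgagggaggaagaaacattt
AKR1C3 window 1: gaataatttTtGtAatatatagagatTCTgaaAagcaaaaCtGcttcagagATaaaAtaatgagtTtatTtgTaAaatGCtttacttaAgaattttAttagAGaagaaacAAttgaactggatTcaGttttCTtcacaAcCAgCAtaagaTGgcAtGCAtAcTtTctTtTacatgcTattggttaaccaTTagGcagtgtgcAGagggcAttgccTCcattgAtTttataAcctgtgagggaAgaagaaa
AKR1C3 window 2: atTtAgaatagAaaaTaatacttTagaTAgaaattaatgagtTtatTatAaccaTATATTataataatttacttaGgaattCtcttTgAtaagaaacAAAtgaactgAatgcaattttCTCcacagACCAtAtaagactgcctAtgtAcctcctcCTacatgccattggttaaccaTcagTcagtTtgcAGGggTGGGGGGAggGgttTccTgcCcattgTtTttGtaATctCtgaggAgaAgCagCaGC
AKR1C4: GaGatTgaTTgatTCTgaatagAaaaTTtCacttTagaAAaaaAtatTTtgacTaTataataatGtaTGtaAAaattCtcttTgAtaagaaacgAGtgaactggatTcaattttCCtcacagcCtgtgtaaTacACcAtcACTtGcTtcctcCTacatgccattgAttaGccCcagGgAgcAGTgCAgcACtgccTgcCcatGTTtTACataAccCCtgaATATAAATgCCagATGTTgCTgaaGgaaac

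Over the whole windows of 300 bases, which also hold the first 50 after the start, AKR1C2 matched AKR1C1 at 288 of 292 aligned bases (98.6%). The first AKR1C3 window matched AKR1C1 at 227 of 291 aligned bases (78.0%), its second window at 225 of 283 (79.5%), and AKR1C4 at 196 of 278 (70.5%). In steps of 25 bases before the start, AKR1C2 was identical to AKR1C1 in all 10 steps, whereas AKR1C4 matched in 55.0% to 84.0% of bases. The AKR1C1 and AKR1C2 promoters are thus nearly the same sequence, and those of AKR1C3 and AKR1C4 are relatives of it.

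**Figure D1:**
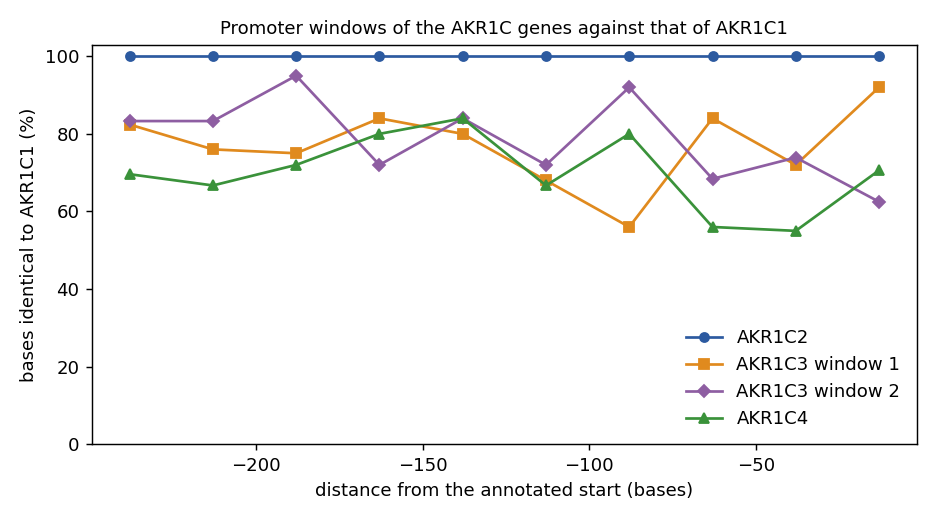
Percent of bases identical to the aligned AKR1C1 base in steps of 25 bases, plotted against the distance from the annotated start in bases, for AKR1C2, both windows of AKR1C3 and AKR1C4. AKR1C2 stays at 100%, and AKR1C4 ranges from 55.0% to 84.0%.

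The core of the antioxidant response element, TGACNNNGC, was searched on both strands of these windows. AKR1A1 and AKR1B1 were left out of this search. Of the 7 genes with probe sets, 6 have windows in the table used, AKR1C1, AKR1C2, AKR1C3, AKR1C4, AKR7A2 and AKR7A3. The core was found in 0 of the AKR1C and AKR7A3 windows and in both AKR7A2 windows (3 matches each), beside 13.3% of 35116 promoter windows of that length in all. The AP-1 element TGANTCA, which shares letters with it, was in 0 windows of the AKR1C and AKR7A genes, and in 7.71% of all windows. A match is a description of letters, and elements farther from the start were not searched.

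The bright probe sets of AKR1C1, AKR1C2 and AKR1C3 were between 2.62-fold and 3.02-fold lower in the CRB3-expressing cells. AKR1B10 was 1.41-fold lower and stayed under the fold threshold, AKR7A2 and AKR7A3 were nearly level, and AKR1C4 was dim in both groups. Of the 16 aldo-keto reductase probe sets, 6 were called lower in the CRB3-expressing cells, 0 were called higher and 10 were not called. Over all probe sets 0.363% were called lower and 0.948% higher, and with 1 probe set per gene 0.465% of 19775 genes were called lower and 1.43% higher. Since the contrast itself led to the choice of the family, nothing is read from the difference between its share and these. On 9 of the 16, all 3 CRB3-expressing arrays lay below all 3 vector control arrays, which held for 10.7% of all probe sets. The median log2 fold change was -0.27 over the 16 and 0.0012 over all probe sets. All 6 called probe sets belong to AKR1C1, AKR1C2 and AKR1C3.

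**Figure D2:**
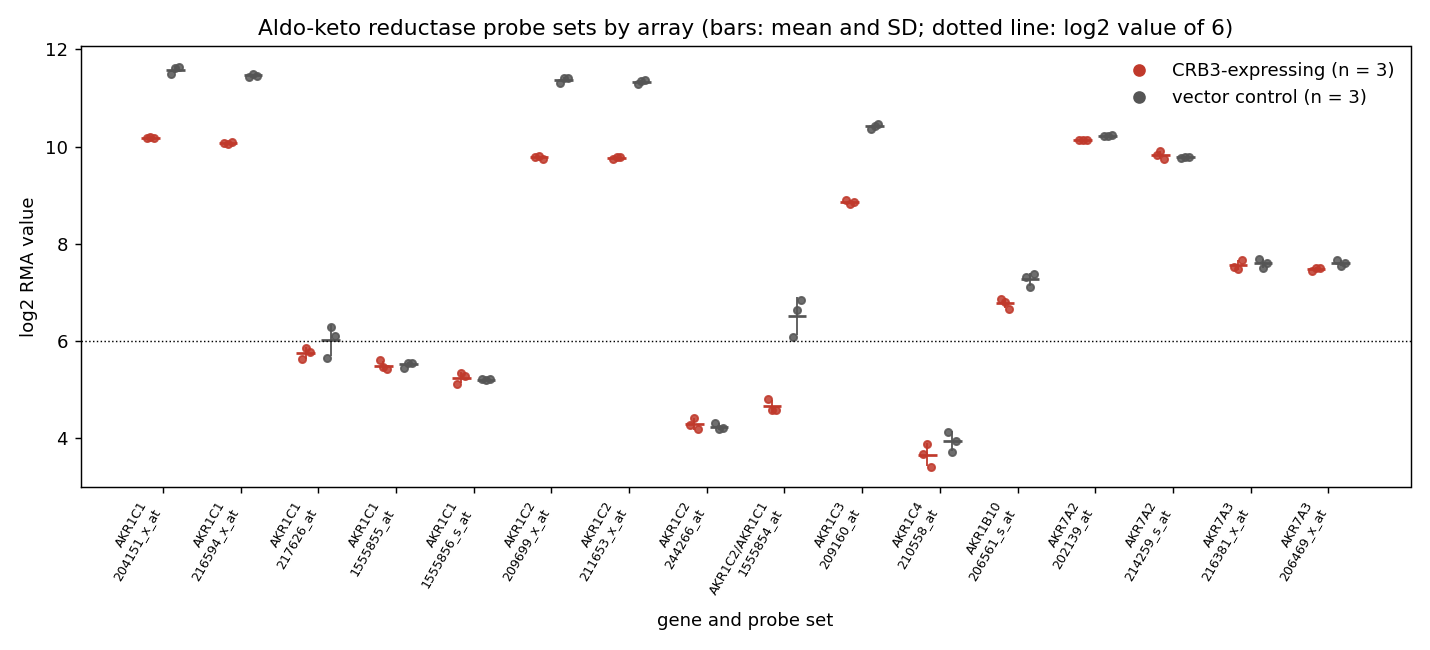
Log2 RMA values of the 16 aldo-keto reductase probe sets on each array, with CRB3-expressing arrays in red left of vector control arrays in grey, and with mean and SD as bars (n = 3 each). The bright AKR1C1, AKR1C2 and AKR1C3 probe sets are lower on every CRB3-expressing array, while those of AKR7A2 and AKR7A3 lie side by side.

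AKR1C1 has 5 probe sets of its own, of which 2 are bright. The first, 204151_x_at, had 10.18, 10.20 and 10.17 on the CRB3-expressing arrays, against 11.50, 11.63 and 11.63 on the vector control arrays, a log2 fold change of -1.40 (SE 0.064). The second, 216594_x_at, had 10.07, 10.06 and 10.09 in CRB3-expressing cells, against 11.44, 11.50 and 11.46 in vector control cells, a log2 fold change of -1.39 (SE 0.058). Both thus gave nearly the same fall, the nearest arrays of the groups stood at least 1.30 apart, and the SD of the CRB3-expressing arrays was at most 0.015. The other 3 probe sets of AKR1C1 were dim, with group means of 5.25 to 5.76 in CRB3-expressing cells and 5.21 to 6.01 in vector control cells. Their log2 fold changes were between -0.26 and 0.04, the groups overlapped on each, and none was called. Of these, 217626_at had the lowest difference, with 5.63, 5.87 and 5.78 on the CRB3-expressing arrays and 5.65, 6.28 and 6.11 on the vector control arrays. The fall of AKR1C1 was therefore read by its bright probe sets, both of the shared kind, and not by its dim ones.

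AKR1C2 showed a fall of the same order. Its probe set 209699_x_at had 9.79, 9.81 and 9.74 on the CRB3-expressing arrays, against 11.32, 11.41 and 11.40 on the vector control arrays, a log2 fold change of -1.59 (SE 0.062) or 3.02-fold lower. The other bright one, 211653_x_at, had 9.75, 9.79 and 9.78 in CRB3-expressing cells, against 11.30, 11.34 and 11.37 in vector control cells, a log2 fold change of -1.56 (SE 0.059). The nearest arrays of the groups stood 1.51 apart on both. The remaining AKR1C2 probe set, 244266_at, was at 4.27, 4.43 and 4.19 on the CRB3-expressing arrays and 4.32, 4.19 and 4.22 on the vector control arrays, so the groups overlapped at the dim end of the scale.

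A further probe set, 1555854_at, is annotated to both AKR1C2 and AKR1C1 and cannot be given to either. It had 4.80, 4.58 and 4.59 in CRB3-expressing cells, against 6.08, 6.64 and 6.85 in vector control cells, a log2 fold change of -1.86 (SE 0.17). This was the lowest fold change of all 54613 probe sets, but the CRB3-expressing values lie under 6, where a probe set is not shown to be above background, and the vector control arrays spread over 0.40 (SD). It was also the only called member whose call was lost when the variance of each probe set was used without moderation.

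AKR1C3 is the called gene whose probe set, 209160_at, carries no suffix of shared probes. It had 8.90, 8.81 and 8.86 on the CRB3-expressing arrays, against 10.36, 10.43 and 10.48 on the vector control arrays, a log2 fold change of -1.56 (SE 0.063) or 2.96-fold lower. The groups were 1.46 apart at their nearest arrays. Among all probe sets ordered from the lowest fold change, the AKR1C2 probe sets 209699_x_at and 211653_x_at stood at places 2 and 3, AKR1C3 at 4 and the bright AKR1C1 probe sets at 12 and 13. Whether the probes of AKR1C3 also bind AKR1C1 or AKR1C2 transcripts was not tested, since probe sequences were not used here.

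**Figure D3:**
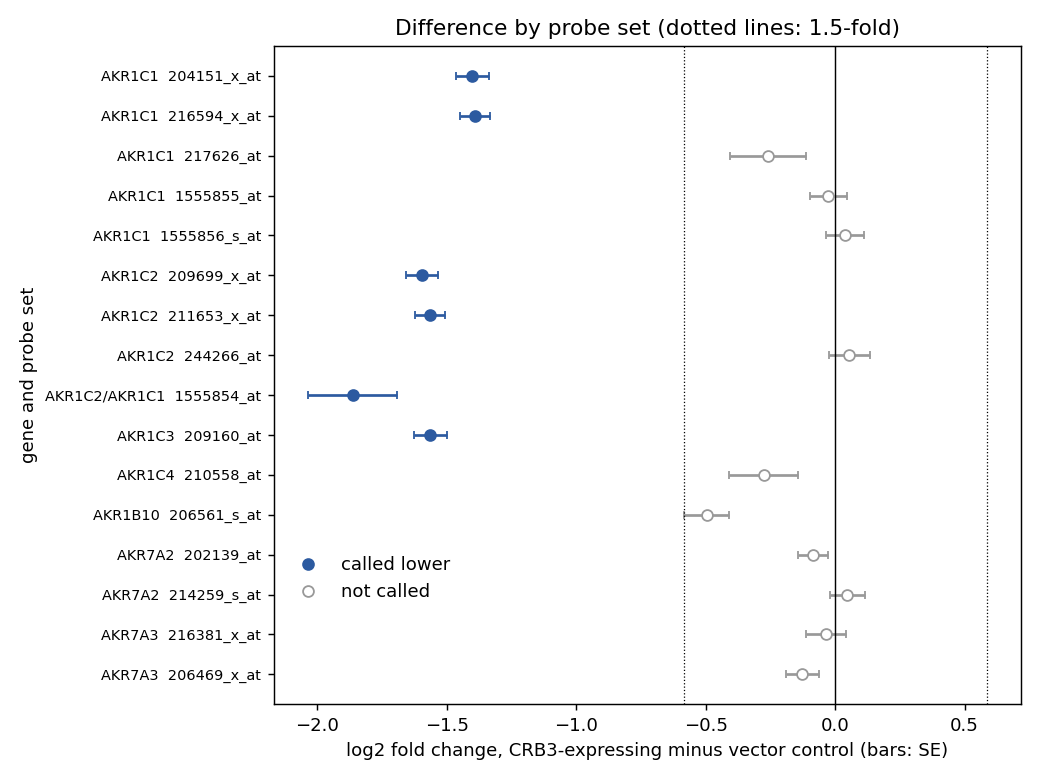
Log2 fold change of each aldo-keto reductase probe set, CRB3-expressing minus vector control, with SE bars, and with dotted lines at a 1.5-fold change. The 6 called probe sets lie between -1.86 and -1.39, and the 10 others lie between -0.50 and 0.06.

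The bright AKR1C1 probe sets fell slightly less than those of AKR1C2 and AKR1C3, as differences within each array show. The absolute size of such a difference has no meaning, since probe sets bind with different strength, so only its change between the groups is read. AKR1C1 minus AKR1C2, each as the mean of its bright probe sets, was 0.36, 0.33 and 0.36 on the CRB3-expressing arrays, against 0.16, 0.18 and 0.16 on the vector control arrays. AKR1C1 minus AKR1C3 was 1.23, 1.32 and 1.27 in CRB3-expressing cells, against 1.11, 1.13 and 1.07 in vector control cells. In both cases the groups did not overlap, but how often such differences do so over all probe sets was not computed. The bright AKR1C1 probe sets had fallen less than those of AKR1C2 by 0.18 and less than that of AKR1C3 by 0.17 on the log2 scale. AKR1C3 minus AKR1C2 was -0.87, -0.99 and -0.90 on the CRB3-expressing arrays and -0.95, -0.95 and -0.91 on the vector control arrays, where the groups overlapped. The bright AKR1C1 and AKR1C2 probe sets may share transcripts, so these differences describe probe sets, not necessarily separate transcripts. Whether the probe sets respond alike to an equal fall of their transcripts was not tested.

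**Figure D4:**
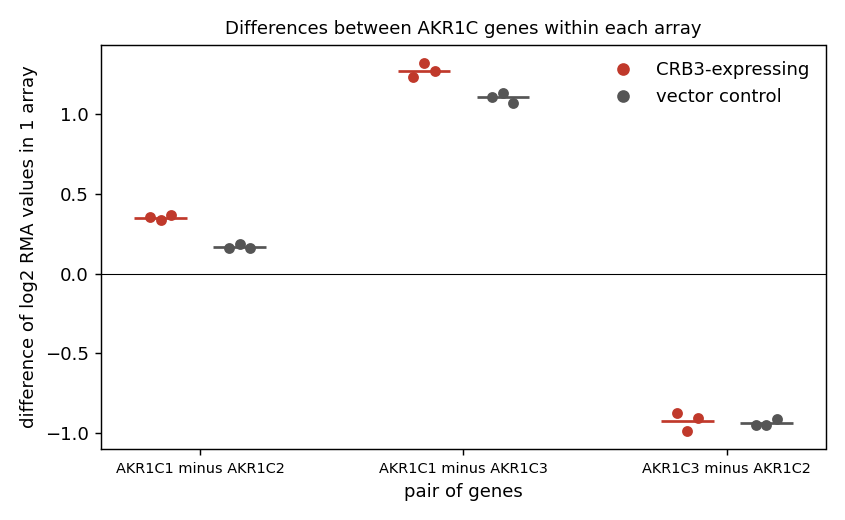
Differences of log2 RMA values between pairs of AKR1C genes within 1 array (mean of the bright probe sets of each gene), with CRB3-expressing arrays in red left of vector control arrays in grey and lines at the means. AKR1C1 minus AKR1C2 and AKR1C1 minus AKR1C3 are higher on every CRB3-expressing array, and AKR1C3 minus AKR1C2 overlaps.

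AKR1C4, the liver member of the same cluster, was near the bottom of the scale. It had 3.68, 3.88 and 3.42 on the CRB3-expressing arrays and 4.14, 3.73 and 3.95 on the vector control arrays, a log2 fold change of -0.28 (SE 0.13), with overlapping groups. At such values the transcript is not shown to be above background in either group.

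AKR1B10 reduces retinal and reactive lipid aldehydes, and was the member just outside the fold threshold. Its probe set, 206561_s_at, had 6.86, 6.81 and 6.66 on the CRB3-expressing arrays, against 7.31, 7.12 and 7.39 on the vector control arrays. The log2 fold change was -0.50 (SE 0.088) or 1.41-fold lower, and the groups stood 0.26 apart at their nearest arrays. It is not called because it stays under 1.5-fold, whereas the member nearest inside the threshold, AKR1C1's 216594_x_at, was 2.62-fold lower. No member lay between these.

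AKR7A2 and AKR7A3 belong to another branch, which reduces succinic semialdehyde and the dialdehyde of aflatoxin. AKR7A2 was bright and nearly level, with 10.13, 10.14 and 10.13 on the CRB3-expressing arrays and 10.21, 10.21 and 10.23 on the vector control arrays on 202139_at, and a second probe set, 214259_s_at, differed by 0.05 in the other direction. AKR7A3 had 7.45, 7.50 and 7.51 in CRB3-expressing cells, against 7.67, 7.55 and 7.62 in vector control cells, on 206469_x_at, and its second probe set, 216381_x_at, overlapped between the groups at a log2 fold change of -0.03. The log2 fold changes of the 4 AKR7A probe sets thus lay between -0.13 and 0.05, and although on 2 of them all CRB3-expressing arrays lay below all vector control arrays, as on 10.7% of all probe sets, none was called.

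The genes beside the AKR1C genes on chromosome 10 were read as well. In RefSeq order the cluster runs AKR1E2, AKR1C1, AKR1C2, AKR1C3 and AKR1C4, with PFKP, PITRM1 and KLF6 on one side and UCN3, TUBAL3, NET1, CALML5 and CALML3 on the other. Of the 10 measured neighbours, which include AKR1E2 and the pseudogene AKR1C6P, 0 were called, beside 0.465% of all genes called lower and 1.43% higher. At such shares the absence of a call among so few genes says little about them. Their log2 fold changes were between -0.19 (NET1, limma adjusted p = 0.205) and 0.46 (KLF6, limma adjusted p = 0.0049, under 1.5-fold). TUBAL3, CALML5 and CALML3 were dim, with means of 4.89, 5.11 and 5.18 over all arrays. AKR1E2, another gene of the aldo-keto reductase superfamily, had 7.54, 7.79 and 7.31 on the CRB3-expressing arrays. It had 7.32, 7.43 and 7.55 on the vector control arrays (log2 fold change 0.12, limma adjusted p = 0.693).

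Genes of related roles were read from lists, with 1 probe set per gene, the brightest. Of 5 measured genes of the wider superfamily, none was called in either direction, and at an unadjusted p under 0.05 limma gave 0 lower and 1 higher, beside 8.39% of all genes lower and 10.4% higher. That one was AKR1D1, which reduces a double bond of steroids in liver, at 3.54 on the CRB3-expressing arrays and 3.26 on the vector control arrays (log2 fold change 0.28, limma adjusted p = 0.184). The potassium channel subunit KCNAB3, a distant relative, differed by -0.12 on the log2 scale (limma adjusted p = 0.548).

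Among 44 measured NRF2 target genes other than the aldo-keto reductases, 5 were called lower (beside 0.465% of all genes), 0 higher and 39 were not called, with a median log2 fold change of -0.10 beside 0.0066 over all genes. At an unadjusted p under 0.05, limma gave 18 of the 44 lower and 3 higher, beside the 8.39% and 10.4% of all genes. The largest fall of the 5 was that of ALDH3A1, an aldehyde dehydrogenase of epithelia, with 7.94, 8.03 and 8.09 in CRB3-expressing cells, against 9.41, 9.27 and 9.39 in vector control cells (log2 difference -1.33, SE 0.070, limma adjusted p = 1.39e-05). SLC7A11, the cystine carrier that feeds glutathione synthesis, had 9.59, 9.71 and 9.52 in CRB3-expressing cells, against 10.27, 10.37 and 10.15 in vector control cells (log2 difference -0.66, limma adjusted p = 0.00213). Of its other probe sets, one was called at -0.75 and one, at -0.54, was not. PIR, an iron-binding nuclear protein, fell by 0.66 (limma adjusted p = 0.000559), the taurine carrier SLC6A6 by 0.65 (limma adjusted p = 0.00183) and the epoxide hydrolase EPHX1 by 0.62 (limma adjusted p = 0.00176). SLC6A6 has 2 more probe sets called lower and 2 at 0.10 and 0.07 that were not called, only 2 of the 5 genes were called when the variance of each probe set was used without moderation, and EPHX1 was no longer called without vector control replicate 3 (log2 fold change -0.57).

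Other textbook NRF2 targets were not called. NQO1, the quinone reductase, was at -0.42 on the log2 scale (limma adjusted p = 0.00685) and -0.51 and -0.54 on its other probe sets, all under 1.5-fold. The glutathione synthesis genes GCLC and GCLM had log2 fold changes of -0.21 and -0.22. Sulfiredoxin SRXN1 was at -0.17, thioredoxin reductase TXNRD1 at 0.09 and heme oxygenase HMOX1 at 0.24. For these genes limma gave adjusted p between 0.114 and 0.562. HMOX1 was at the edge of the dim range, with means of 6.11 on the CRB3-expressing arrays and 5.87 on the vector control arrays. The other probe sets of GCLM were at -0.38 (limma adjusted p = 0.0244) and -0.46 (limma adjusted p = 0.0918), under 1.5-fold. Of the listed NRF2 targets, ALDH3A1 came nearest in size to the AKR1C genes, and the other 4 called ones fell by 0.62 to 0.66.

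The regulators of that response were read at the level of transcripts. Of 12 measured, none was called, and their log2 fold changes were between -0.18 and 0.34. At an unadjusted p under 0.05, limma gave 3 lower and 3 higher, beside 8.39% of all genes lower and 10.4% higher. NFE2L2, which encodes NRF2, had 11.31, 11.18 and 11.19 in CRB3-expressing cells, against 11.36, 11.43 and 11.44 in vector control cells (log2 difference -0.18, limma adjusted p = 0.206). KEAP1 was at -0.05 (limma adjusted p = 0.704) and BACH1 at 0.03 (limma adjusted p = 0.904). The related factors NFE2L1 and NFE2L3 were at 0.29 (limma adjusted p = 0.111) and 0.34 (limma adjusted p = 0.104). NFE2L3 was dim, with means of 5.53 on the CRB3-expressing arrays and 5.20 on the vector control arrays, and its other probe set, also dim, was at 0.015. NFE2L1 has 2 more bright probe sets, at 0.39 (limma adjusted p = 0.00895) and 0.39 (limma adjusted p = 0.011), both under 1.5-fold. The other probe sets of NFE2L2 were at -0.02 and -0.20, not called. NRF2 is set mainly by protein turnover, which arrays do not measure.

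Enzymes that share substrates with the aldo-keto reductases were read beside the shares of all genes, 0.465% called lower and 1.43% called higher. Of 30 carbonyl reductases of other families none was called. At an unadjusted p under 0.05, limma gave 3 lower and 4 higher, beside 8.39% and 10.4% of all genes. The smallest p-values were those of DHRS1 (log2 fold change 0.57, limma adjusted p = 0.00111) and GRHPR (0.32, limma adjusted p = 0.018), both under 1.5-fold. Of 28 steroid metabolism genes 1 was called lower and 0 higher. It was HSD17B2, which oxidizes estradiol and testosterone, with 4.38, 4.12 and 4.20 in CRB3-expressing cells, against 4.89, 5.17 and 5.40 in vector control cells (log2 difference -0.92, limma adjusted p = 0.00396), all in the dim range, and it dropped out under both filters on dim probe sets.

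Of 22 prostaglandin genes 1 was called higher and 0 lower, beside 1.43% and 0.465% of all genes. The same shares stand beside the calls of the next lists. PTGS2, the inducible cyclooxygenase upstream of AKR1C3 in prostaglandin synthesis, averaged 7.11 ± 0.18 on the CRB3-expressing arrays and 5.61 ± 0.24 on the vector control arrays (SD, n = 3 each, limma adjusted p = 0.00029), a call that was lost without moderation of the variance. Its vector control values lie under 6, where it is not shown to be above background, so no fold is given. Of 19 aldehyde dehydrogenases, ALDH3A1 was called lower and ALDH1A3, which makes retinoic acid from retinal, was called higher (log2 fold change 0.71, limma adjusted p = 0.000195, not called with its dim second probe set averaged in), and the other 17 were not called. Of 9 genes of the polyol and glucuronate pathways none was called. Limma gave 1 lower (HK1, at -0.18) and 1 higher (UGP2, at 0.29) at an unadjusted p under 0.05, beside 8.39% and 10.4% of all genes.

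**Figure D5:**
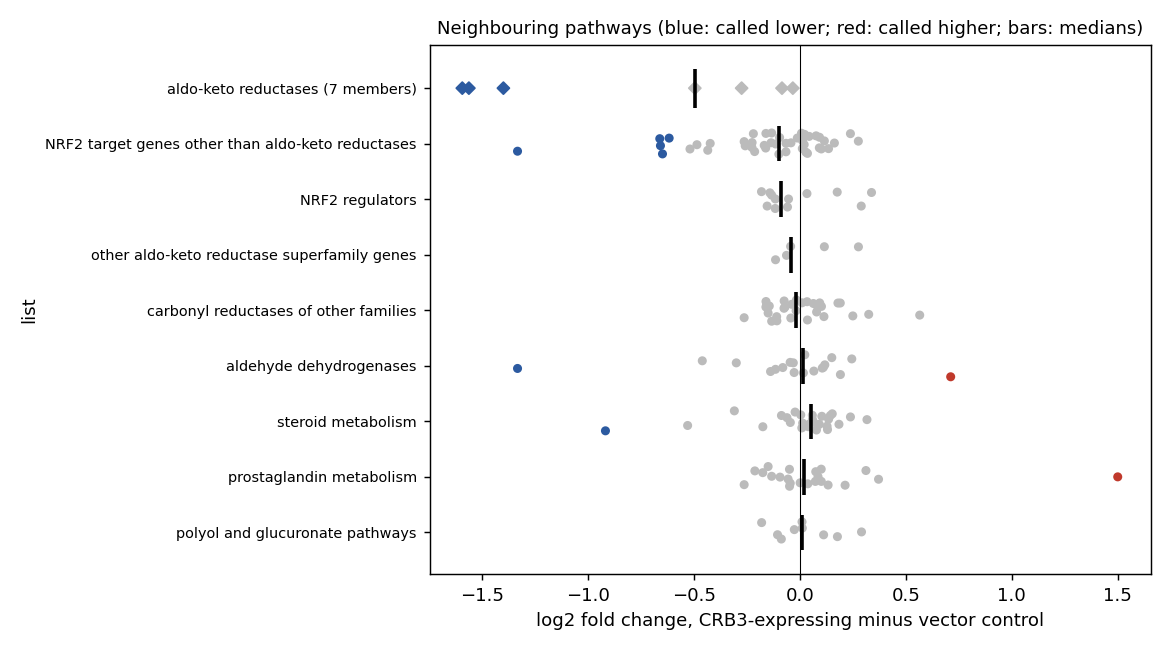
Log2 fold changes, CRB3-expressing minus vector control, of the 7 measured aldo-keto reductases (diamonds) and of the genes of each list (circles), with 1 probe set per gene. Blue marks genes called lower, red genes called higher, grey genes not called, and bars the medians, which lie between -0.10 and 0.05 in the 8 lists of related genes.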

How the data were processed

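MCF-10A cells with ectopic CRB3 (3 arrays) were compared with vector control cells (3 arrays). The authors normalized the 6 arrays with RMA and deposited 1 log2 value for every probe set on every array, which were used without change. Versions of the authors' tools are not given in the sources used here, and no detection calls were used, so a mean under 6 is only called dim.

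Differences were fitted with limma 3.58.1 in R 4.3.3 over 54613 probe sets, without the 62 control probe sets, and p-values were adjusted over all of these by Benjamini-Hochberg. Gene symbols came from the platform annotation (41091 probe sets with 1 symbol, 1801 with several, 11721 with none), updated through RefSeq identifiers, where 0 changed and 54 identifiers were not found. The thresholds were those of the study's methods. Fitting was tested on simulated data. Promoter windows were aligned with Biopython 1.88.

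The members, the 10 gene lists (8 of related genes and 2 of markers) and the tests were chosen with earlier results of these data known. Named genes were all member probe sets, CRB3, up to 4 called genes per list (with none called, the 2 of smallest p), and NFE2L2, KEAP1, BACH1, NQO1, HMOX1, GCLC, GCLM, TXNRD1, SRXN1, SLC7A11, ALDH3A1, AKR1D1 and AKR1E2. The neighbours on chromosome 10 were added after the values had been seen. Protein identity was not computed, since protein sequences were not used here.

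Alternatives were a replicate block, other variance priors, centring, quantile normalization, filters on dim probe sets, array weights, other fold thresholds, other probe set rules and leaving out each array.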

Additional observations from a re-analysis of the deposited data

How the results depend on the processing

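The count of aldo-keto reductase probe sets called lower was within 1.5 times its value of 6 under 17 of 18 alternatives, and fell to 2 without _s_at and _x_at probe sets, which leaves out the bright AKR1C1 and AKR1C2 probe sets. None was called higher under any of them. With any 1 array left out the count was 6. The log2 fold change of CRB3 lay between 4.24 and 4.39. Over all probe sets, the counts lower and higher were 180 to 221 and 490 to 526 with 1 array left out, 82 and 297 with ordinary pooled variance, 759 and 1226 with no fold threshold, and 44 and 196 with a fold above 2. NRF2 targets called lower were 4 to 5 with 1 array left out, 2 with ordinary pooled variance, 9 with no fold threshold and 1 with a fold above 2. Steroid genes called lower were 1 to 2 with 1 array left out (2 without CRB3-expressing replicate 1), 0 with ordinary pooled variance, under both filters on dim probe sets and with a fold above 2, and 2 (with 1 higher) with no fold threshold. Prostaglandin genes called higher were 0 with ordinary pooled variance and 2 with no fold threshold. Carbonyl reductases called higher were 0 to 1 with 1 array left out (DHRS1, without CRB3-expressing replicate 3) and 2 with no fold threshold. With no fold threshold, 1 polyol gene was higher and 2 aldehyde dehydrogenases were lower. Aldehyde dehydrogenases called higher were 0 with a fold above 2 and with the mean over the probe sets of a gene.

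Same-numbered samples correlated at -0.085, 0.064 and 0.029 in their deviations from the group means. These values gave no sign that the replicate numbers pair the samples, but 3 samples per group cannot exclude it. With the replicate number as a block, 6 aldo-keto reductase probe sets were called lower, as were 198 of all probe sets, while 512 were higher. The block ended or added no call among the named genes. Of the values of named probe sets and genes under the alternatives, 747 kept their side of the thresholds, 6 passed them newly, 19 no longer passed them and none changed sign while called. The number of arrays and the absence of detection calls limit the precision of dim probe sets such as those of AKR1C4, and shared probes limit what can be said of AKR1C1 apart from AKR1C2.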
